A study of Mus musculus with 9 samples.

Results

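The genes described here are 8 components and transcriptional targets of the YAP and TEAD pathway: the coactivators Yap1 and Wwtr1 (which encodes TAZ), the DNA-binding factor Tead1, the pathway inhibitors Lats2 and Amotl2, and the target genes Ctgf, Cyr61 and Ankrd1. They were chosen by name with their levels in these libraries already known, so their own differences between ages are given as descriptions, with standard errors and with no p. The 8 genes hold 9 of the 37980 rows of the deposited expression table, because Tead1 has 2 rows, and 7 of the 9 rows entered the fit of 11509 protein-coding genes. Ankrd1 was listed at 0 in every library, and the second Tead1 row carries an identifier that could not be typed as protein-coding.

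The RNA came from stem cells of the hair follicle in male C57BL/6J mice aged 3, 19 or 24 months, with 3 libraries per age and no allele or treatment named for any age. Cells with high CD49f and with CD34, the surface pair that marks the follicle bulge, were sorted from the skin of back and belly. Replicates carry the numbers 1 to 3 at both 3 and 19 months, but 2 to 4 at 24 months, and whether libraries of the same age represent different animals is not labelled. Every p below therefore measures library-to-library spread alone, which may be technical.

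YAP and TAZ are coactivators with no DNA-binding domain of their own. They act in the nucleus through TEAD factors, which bind the core sequence GGAATG. The Hippo kinases MST and LATS phosphorylate them, which holds them in the cytoplasm or leads to their degradation, and angiomotin family proteins such as AMOTL2 bind and retain them. CTGF and CYR61 are secreted matricellular proteins of the CCN family and ANKRD1 is a nuclear ankyrin repeat protein. All 3 are widely used readouts of YAP activity, and LATS2 and AMOTL2 are themselves induced by YAP, which closes a negative feedback loop. In skin, YAP is known as a promoter of basal keratinocyte proliferation and follicle growth that responds to tissue stiffness and cell crowding. Ctgf and Cyr61 are also known to respond to serum, to glucocorticoids and to the actin-regulated factor SRF, and Cyr61 belongs to the immediate early genes.

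The promoter sequences are shown because TEAD factors, through which YAP acts, can bind near the start of its targets, though not only there. RefSeq promoter entries on GRCm38.p6, running from 250 bases before to 50 bases after each transcript start, matched 6 of the 8 genes. The expression table was made on another build, so the coordinates belong to the sequences alone. The 250 bases before the start of Cyr61 (chr3:145649986-145650235, minus strand) and Amotl2 (chr9:102717554-102717803, plus strand) are given 5′ to 3′ along the gene, with the TEAD core in capitals. In both it reads as CATTCC, the reverse complement of GGAATG, and it begins 103 bases before the start in Cyr61 and 65 bases before it in Amotl2.
Cyr61: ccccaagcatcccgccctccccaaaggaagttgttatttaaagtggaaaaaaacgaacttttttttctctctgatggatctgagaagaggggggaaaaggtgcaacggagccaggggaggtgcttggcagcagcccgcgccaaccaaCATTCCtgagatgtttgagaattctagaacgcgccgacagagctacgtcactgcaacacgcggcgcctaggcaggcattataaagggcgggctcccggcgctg
Amotl2: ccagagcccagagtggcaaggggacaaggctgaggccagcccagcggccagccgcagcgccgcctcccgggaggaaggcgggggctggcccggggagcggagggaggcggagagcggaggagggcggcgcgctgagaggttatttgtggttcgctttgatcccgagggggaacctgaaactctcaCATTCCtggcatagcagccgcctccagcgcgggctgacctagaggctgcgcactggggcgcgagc

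In the other 4 matched genes the core reads GGAATG along the gene, and a window of 30 bases around each is shown with the core in capitals. Ankrd1 has 2 cores, beginning 210 bases (chr19:36120037-36120066) and 123 bases (chr19:36119950-36119979) before the start, both on the minus strand. Yap1 has 1 that begins 141 bases before its start (chr9:8004720-8004749, minus strand). Wwtr1 has 1 that begins 136 bases before the first of its 2 starts (chr3:57576029-57576058, minus strand), and Lats2 has 1 that begins 4 bases after its first start (chr14:57746102-57746131, minus strand).
Ankrd1 upstream: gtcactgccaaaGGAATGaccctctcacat
Ankrd1 downstream: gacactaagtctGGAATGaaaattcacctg
Yap1: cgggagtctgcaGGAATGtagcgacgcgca
Wwtr1: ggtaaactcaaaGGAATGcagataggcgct
Lats2: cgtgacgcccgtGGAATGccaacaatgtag

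A GGAATG core on either strand lay in the promoter entries of 6 of 6 matched genes, against 16.6% of 27025 genes and 14.7% of 32851 promoter entries of the same length. Among other genes of a published YAP and TAZ target signature, 3 of 11 with an entry held the core. The AP-1 motif TGANTCA, which reads the same on both strands, lay in 0 of the 6, against 8.97% of genes. The CArG box bound by SRF also lay in 0 of the 6, against 1.81% of genes. A match is a run of letters and says nothing about binding in these cells, and a motif with no match may lie outside the window.

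The table gives FPKM, fragments scaled by transcript length and by library size, so levels can be set beside each other per length. Differences were estimated with limma on log2(FPKM + 1), which understates the change of low genes, and are given as log2 differences with their standard error (SE). A gene was called at a Benjamini-Hochberg adjusted p under 0.05 over the 11509 protein-coding genes. The 2 secreted targets were among the abundant transcripts: the median Ctgf level over the 9 libraries exceeded that of 94.3% of tested genes and the Cyr61 level that of 95.3%. The Yap1 level exceeded 72.9%, and the Lats2, Amotl2, Tead1 and Wwtr1 levels exceeded 41.9%, 39.4%, 36.6% and 31.4%, where the median tested gene stood at 10.6 FPKM. Yap1 mRNA was the more abundant coactivator in every library, at 3.96 to 6.08 times the Wwtr1 FPKM at 3 months, 4.12 to 4.49 times at 19 months and 4.50 to 6.94 times at 24 months.

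The runs of low values, which show what 1 read was worth, separated the libraries. In 6 libraries, 2 of each age, the ratios of values under 0.05 FPKM piled up at shared steps and the depth of the 6 on the authors' scale differed by at most 1.48 times (19 months replicate 2 against 3 months replicate 2). The libraries 3 months replicate 1, 19 months replicate 1 and 24 months replicate 2 did not share those steps. Their depth relative to the 6 is therefore unknown, as is the absolute depth of all 9. Of these, 19 months replicate 1 and 24 months replicate 2 shared steps with each other, with 21.7% of low genes in their fullest ratio bin. They are counted among the 16 sharing pairs below. The fullest ratio bin held 17.6% to 37.7% of low genes in the 16 library pairs that share steps and 2.84% to 4.81% in the other 20 pairs. Running numbers and barcodes in the labels place the 3-month libraries apart from the older ones. For 3 months against either older age, age therefore cannot be told apart from whatever those numbers and barcodes mark.

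**Figure D1:**
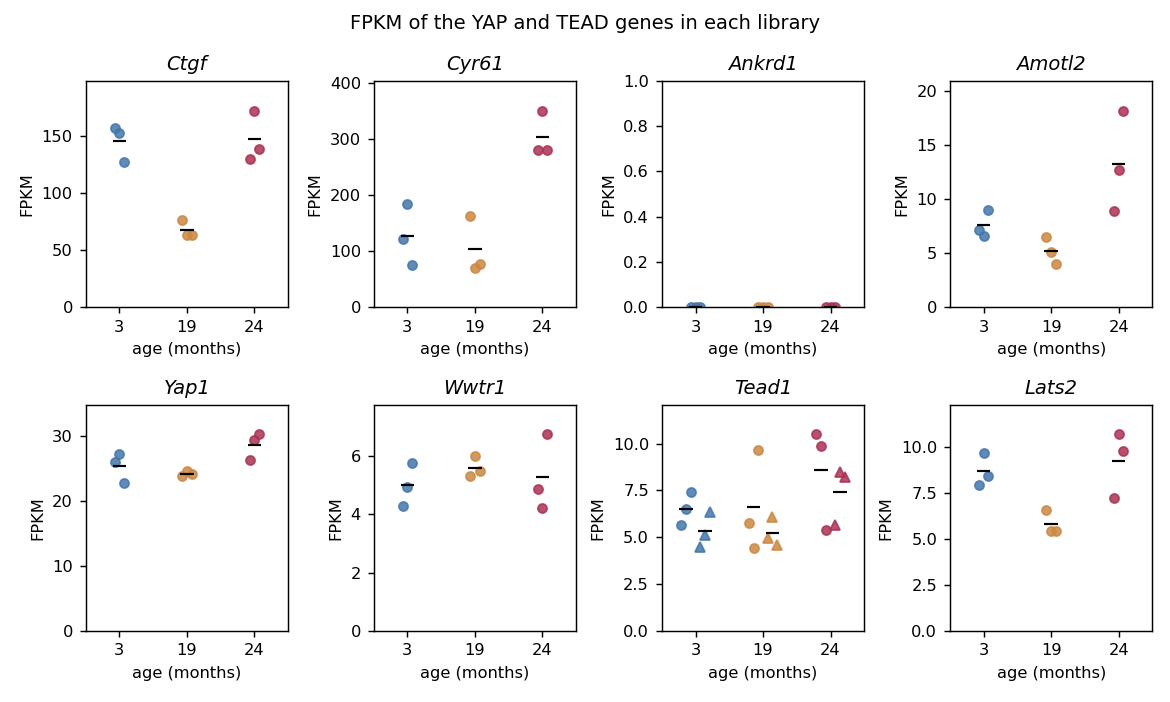
FPKM of each gene in every library (points, vertical axis, a separate scale for each gene) at 3, 19 and 24 months (horizontal axis), with a bar at the mean of 3 libraries and, for Tead1, triangles for its second row. Ctgf was lowest at 19 months, at 62.7 to 76.2 FPKM, Cyr61 was highest at 24 months, at 281 to 351 FPKM, and Wwtr1 overlapped between all ages.

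Of the coactivators, Yap1 varied little. It stood at 26.0, 27.3 and 22.8 FPKM in replicates 1, 2 and 3 of 3 months, at 23.8, 24.7 and 24.1 FPKM at 19 months, and at 26.3, 29.4 and 30.3 FPKM in replicates 2, 3 and 4 of 24 months. All 24-month values lay above all 19-month values and overlapped those of 3 months, with means of 25.3 ± 2.32, 24.2 ± 0.469 and 28.7 ± 2.10 FPKM in order of age (SD, n = 3 each). The log2 difference was -0.06 at 19 against 3 months, 0.17 at 24 against 3 months and 0.23 at 24 against 19 months, each with an SE of 0.13. In GENCODE M21, an annotation of another build than that of the expression table, Yap1 overlaps Gm20416 on the opposite strand. With strand use not stated, the value of an overlapping gene is uncertain.

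Wwtr1, the gene of TAZ, stood at 4.28, 4.94 and 5.75 FPKM at 3 months, 5.31, 6.01 and 5.50 FPKM at 19 months and 4.87, 4.23 and 6.75 FPKM at 24 months. The 3 ages overlapped throughout, and the range at 24 months alone spanned every value of the other ages. Its log2 differences were 0.15, 0.06 and -0.09 (SE 0.18) at 19 against 3, 24 against 3 and 24 against 19 months.

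Tead1 encodes the DNA-binding partner through which both coactivators reach their targets. Its protein-coding row read 5.64, 6.51 and 7.44 FPKM at 3 months, 5.75, 4.41 and 9.65 FPKM at 19 months and 10.5, 9.88 and 5.39 FPKM at 24 months. The ages overlapped, and the spread within 19 and within 24 months exceeded the difference of the means, with log2 differences of -0.04, 0.31 and 0.35 (SE 0.25). The second Tead1 row read 4.48, 5.14 and 6.33 FPKM at 3 months, 4.94, 6.10 and 4.59 FPKM at 19 months and 5.66, 8.47 and 8.19 FPKM at 24 months, and its ages overlapped too. Its log2 differences, from a fit of all gene types, were -0.02, 0.41 and 0.43 (SE 0.18). How reads were divided between the 2 rows is not known, so the Tead1 level is uncertain, and the 2 rows disagree on which 24-month library is lowest or highest.

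The inhibitors were lowest at 19 months. Lats2, a kinase that phosphorylates YAP and TAZ, stood at 7.95, 9.67 and 8.44 FPKM at 3 months, 6.59, 5.42 and 5.42 FPKM at 19 months and 7.25, 10.7 and 9.76 FPKM at 24 months. Every 19-month library lay below every library of the other ages, while 3 and 24 months overlapped. The log2 difference was -0.51 (SE 0.17) at 19 against 3 months, 0.07 at 24 against 3 months and 0.58 at 24 against 19 months, and the mean at 24 months was 1.59 times that at 19 months. In GENCODE M21, an annotation of another build than that of the expression table, Lats2 overlaps Gm49361 on the same strand. Whether the annotation behind the table held Gm49361 is not known, so how reads of the overlap were assigned is uncertain.

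Amotl2, which retains YAP at junctions and in the cytoplasm, read 7.17, 6.60 and 9.02 FPKM at 3 months, 6.51, 5.09 and 4.01 FPKM at 19 months and 8.88, 12.7 and 18.2 FPKM at 24 months. The 19-month libraries lay below all others, narrowly so against 3 months, where 6.51 FPKM stood next to 6.60. At 24 months 2 of 3 libraries exceeded all of 3 months. The log2 differences were -0.48, 0.69 and 1.17 (SE 0.23) at 19 against 3, 24 against 3 and 24 against 19 months. The second of these rests in part on 24 months replicate 4, the highest library, and was 0.45 without it.

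Of the targets, Ctgf had its low point at 19 months and stood at the same level at 3 and 24 months. It read 157, 152 and 127 FPKM at 3 months, 76.2, 63.5 and 62.7 FPKM at 19 months and 130, 172 and 138 FPKM at 24 months. The 19-month libraries lay below every other library, and 3 and 24 months overlapped. Mean levels were 145 ± 15.9, 67.5 ± 7.60 and 147 ± 22.3 FPKM (SD, n = 3 each), so that the 19-month mean was 0.464 times that of 3 months and the 24-month mean 2.18 times that of 19 months. The log2 differences were -1.10, 0.01 and 1.11 (SE 0.14). Ctgf overlaps Gm15270 on the opposite strand in GENCODE M21.

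Cyr61 followed another course, with no drop at 19 months beyond the spread and its highest level at 24 months. It read 121, 184 and 74.9 FPKM at 3 months, 163, 70.0 and 77.2 FPKM at 19 months and 281, 351 and 281 FPKM at 24 months. Every 24-month library lay above every younger one, and 3 and 19 months overlapped over almost their whole range. The means were 127 ± 54.7, 103 ± 51.5 and 304 ± 40.7 FPKM (SD, n = 3 each), with log2 differences of -0.31, 1.34 and 1.65 (SE 0.30), and the 24-month mean was 2.40 times that of 3 months. In each library the ratio of Cyr61 to Ctgf FPKM was 0.589 to 1.21 at 3 months, 1.10 to 2.13 at 19 months and 2.04 to 2.15 at 24 months, so the balance of these related matricellular transcripts at 24 months lay above every 3-month library.

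Ankrd1 was listed at 0 FPKM in all 9 libraries, as were 3409 of 20213 protein-coding rows. Not every 0 is a true absence, since the bulge keratin Krt15 has the same entry in every library. No low level of Ankrd1 is claimed. The CCN relatives of Ctgf and Cyr61 (Nov, Wisp1, Wisp2 and Wisp3) were low throughout, with a highest value of 0.335 FPKM for Wisp3, and none was tested.

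**Figure D2:**
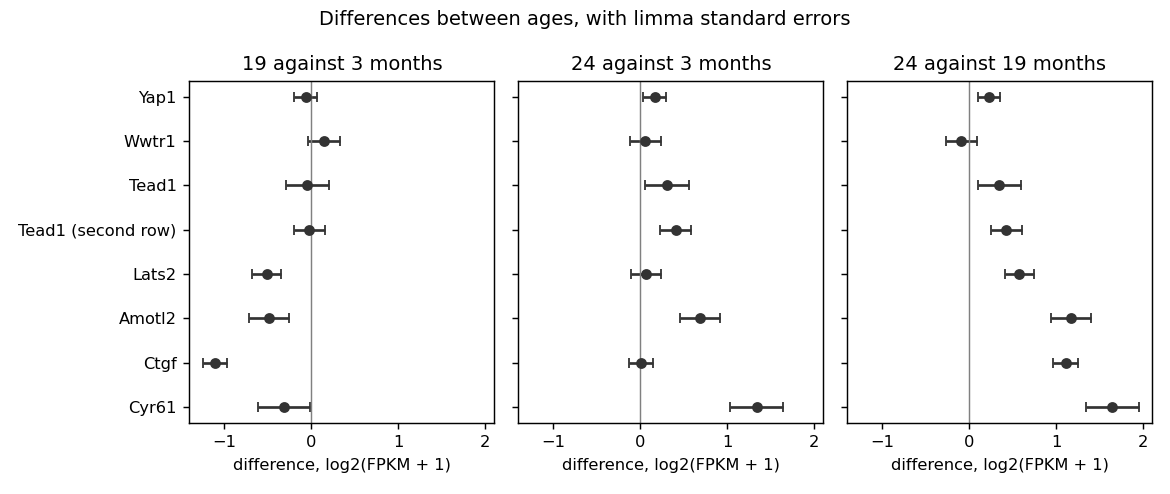
Log2 difference of FPKM + 1 (horizontal axis) of each gene at 19 against 3, 24 against 3 and 24 against 19 months, with bars of 1 limma SE. Ctgf sits at -1.10, 0.01 and 1.11, Cyr61 at -0.31, 1.34 and 1.65, and Yap1 and Wwtr1 within 0.23 of 0.

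At 19 against 3 months, 1 of the 7 genes in the fit was called lower (Ctgf) and none higher, where 0.964% of all tested genes were called lower and 0.600% higher. The libraries of the 2 ages did not overlap for 3 genes, all lower (Ctgf, Amotl2 and Lats2), against 11.6% of all genes lower and 11.0% higher. At 24 against 3 months, 1 gene was called higher (Cyr61) and none lower, against 1.50% and 2.34% of all genes, and the same gene alone did not overlap, against 10.6% higher and 12.0% lower. At 24 against 19 months, 3 genes were called higher (Ctgf, Cyr61 and Amotl2) and none lower, against 0.712% and 0.217%. The libraries did not overlap for 5, all higher (those 3, Lats2 and Yap1), against 7.94% higher and 10.4% lower. Since the genes were chosen with these contrasts known, nothing is read from the counts. Of 21 alternatives, the Ctgf call was made in 21 at 19 against 3 months and in 18 at 24 against 19 months. The Cyr61 call was made in 11 at 24 against 3 months and in 13 at 24 against 19 months, and that of Amotl2 at 24 against 19 months in 11. The calls at 24 against 3 and 24 against 19 months were all lost with all gene types and with no filter on low values. Leaving out 1 library ended the Cyr61 call at 24 against 3 months in 5 of 9 fits (3 months replicate 1 or 3, or any of 24 months), its call at 24 against 19 months in 4 and the Amotl2 call in 5. These fits were those without either of replicates 2 and 3 of 19 months or either of replicates 3 and 4 of 24 months, and for Amotl2 also the one without 3 months replicate 2. The 3 comparisons share libraries: a low 19-month level enters the first as a drop and the last as a rise.

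Over the whole fit, the 3 comparisons in that order had 180, 442 and 107 called genes, and 1804, 2490 and 1468 had an unadjusted p under 0.05. In a fit of all gene types the calls were 27, 0 and 0, with 1976, 2630 and 1504 at an unadjusted p under 0.05, so the calls below hold for the protein-coding fit. With libraries scaled to the same median, the share of calls that were higher was 48.9% in place of 38.3% at 19 against 3 months and 53.2% in place of 39.1% at 24 against 3 months. In the 6 libraries that share read steps, the log2 difference at 24 against 19 months was 1.27 for Ctgf, 2.08 for Cyr61, 1.55 for Amotl2 and 0.80 for Lats2, each above its value in all 9.

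Across the 9 libraries, as a description in which the libraries share 3 ages, Ctgf and Lats2 levels on the log2 scale correlated at r = 0.92, Amotl2 and Lats2 at 0.80, Cyr61 and Yap1 at 0.81 and Ctgf and Cyr61 at 0.64. The lowest pairs were Ctgf and Wwtr1, at -0.47, and Wwtr1 and Tead1, at -0.44. Among all tested genes, the profile most like that of Ctgf was Tsc22d3, a leucine zipper gene induced by glucocorticoids (Pearson r = 0.990, Spearman rho = 0.983). It read 653 to 1154.5 FPKM at 3 months, 94.1 to 147 FPKM at 19 months and 677 to 1048.6 FPKM at 24 months. Fam46b and Chst15, a chondroitin sulfate sulfotransferase gene, came next at r = 0.982 and 0.969. The gene most like Cyr61 was Lrrn4cl (r = 0.959, rho = 0.933), at 0.275 to 0.968, 0.319 to 0.924 and 1.39 to 1.63 FPKM in order of age, followed by Gm14418 (r = 0.946) and Abcg4 (r = 0.933). Lrrn4cl is a low gene that passed the filter of 1 FPKM only through 24 months, where Cyr61 is high too. Its likeness to Cyr61 is therefore partly set by the filter.

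Amotl2 was most like Mcl1, an anti-apoptotic BCL2 relative (r = 0.985, rho = 0.967, 20.4 to 34.0 FPKM over the 9 libraries), then Dock9 (r = 0.980) and Avpr1a (r = 0.963). Lats2 was most like Smoc2, a matricellular protein gene (r = 0.972), Pfkfb2 (r = 0.962) and Adamts1 (r = 0.960). For Yap1 these were Bbox1, Slc31a2 and Zfp119b (r = 0.957, 0.953 and 0.948), for Wwtr1 Wdr41, Kazn and Ppil3 (r = 0.922, 0.913 and 0.896), and for Tead1 Cmbl, Tagln and Kcnk6 (r = 0.916, 0.907 and 0.892).

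**Figure D3:**
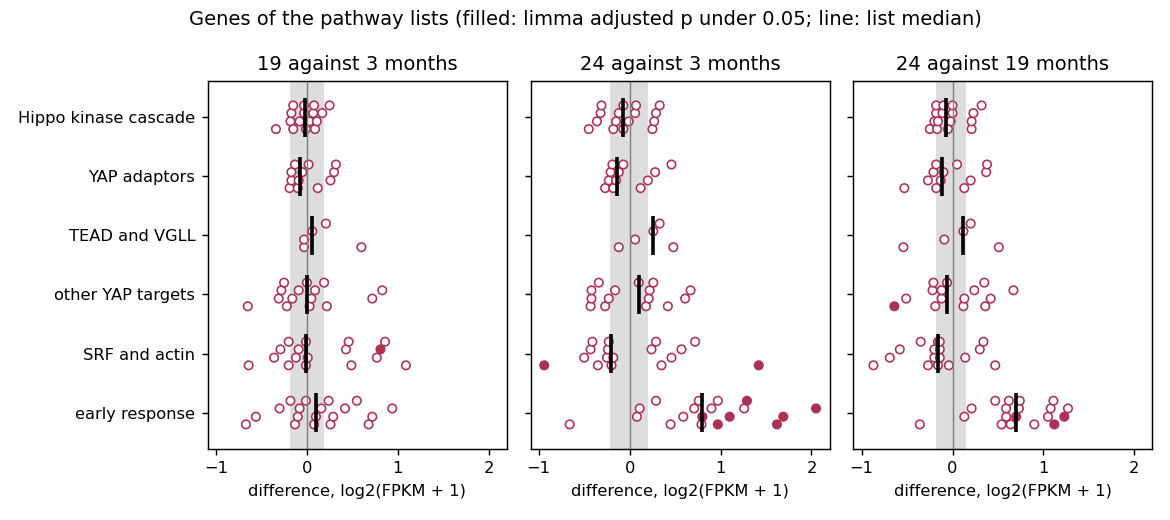
Log2 difference of FPKM + 1 (horizontal axis) of every tested gene of 6 pathway lists at the 3 comparisons, 1 point a gene (filled where called by limma), with a bar at the list median and a grey band from the lower to the upper quartile of all tested genes. The early response genes lie mostly above 0 at 24 against 3 months (median 0.80, 18 of 19 genes), while the Hippo core and the adaptor genes stay near 0 with medians of -0.07 and -0.13.

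The other genes of the pathway did not pass the test at any comparison, with 1 exception among the targets. Of 16 tested Hippo core genes (the kinases, scaffolds and upstream regulators), 0 were called by limma at any of the 3 comparisons, and, in the same order, 0, 2 and 0 had an unadjusted p under 0.05. Their median log2 differences were -0.02, -0.07 and -0.08, where those of all tested genes were 0.006, -0.004 and -0.018. At 24 against 3 months the highest was Sav1, the scaffold of the MST kinases, at 0.33 ± 0.16 (SE, limma adjusted p = 0.252). The lowest was Mob1b, the LATS cofactor, at -0.45 ± 0.19 (adjusted p = 0.178).

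Of 12 tested adaptor genes, which hold or modify YAP at junctions, in the cytoplasm or on the way to degradation, 0 were called by limma at the 3 comparisons, and 1, 1 and 2 had an unadjusted p under 0.05. The highest at 24 against 3 months was Ajuba, a LIM protein that inhibits LATS, at 29.4 FPKM at 3 months and 40.2 FPKM at 24 months (log2 0.46 ± 0.16, limma adjusted p = 0.118). The lowest was Btrc, a ubiquitin ligase subunit, at -0.27 ± 0.17 (adjusted p = 0.388). In the 6 libraries that share read steps Ywhaq, a 14-3-3 protein gene, was called lower at 24 against 19 months (log2 -0.67 ± 0.16, limma adjusted p = 0.043), against -0.53 and an adjusted p of 0.0837 in all 9.

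The other TEAD factors and the VGLL cofactors that compete with YAP for them had 5 tested genes, 0 of them called by limma at the 3 comparisons, with 1, 1 and 2 at an unadjusted p under 0.05. Tead4 read 2.55 ± 0.686 FPKM at 3 months and 3.96 ± 0.913 FPKM at 24 months (n = 3 each, SD), a log2 difference of 0.48 ± 0.20 (SE, limma adjusted p = 0.183), and Tead3 differed by -0.12 ± 0.19 (adjusted p = 0.762). Vgll4 was the most abundant, at 62.1 to 147 FPKM over the 9 libraries. In the 6 libraries that share read steps, Vgll4 was called lower at 24 against 19 months (log2 -0.79 ± 0.18, limma adjusted p = 0.0412), against -0.54 and an adjusted p of 0.326 in all 9. Vgll1 and Vgll2 were listed at 0 in every library.

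Of 15 tested genes of the published target signature beyond those chosen, none was called by limma at 19 against 3 or at 24 against 3 months, with 3 and 4 at an unadjusted p under 0.05. At 24 against 19 months 1 was called, lower, and 6 had an unadjusted p under 0.05, 4 higher and 2 lower. The medians were 0.00, 0.10 and -0.06. The called gene was Nt5e, which encodes the ecto-nucleotidase CD73, at 152 ± 15.6 FPKM at 19 months and 97.6 ± 12.1 FPKM at 24 months (n = 3 each, SD), a log2 difference of -0.64 ± 0.14 (SE, limma adjusted p = 0.0499). The call was lost in 8 of 9 fits that left out 1 library, with an adjusted p of up to 0.21 without 19 months replicate 3, and it was 0.0651 in the 6 libraries that share read steps. Fjx1 was the highest at 24 against 3 months, at 3.77 and 6.74 FPKM (log2 0.67 ± 0.23, limma adjusted p = 0.113), and Gadd45a the lowest (-0.43 ± 0.25, adjusted p = 0.335).

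SRF and its actin-regulated cofactors share many targets with YAP. Of 17 tested genes of that list, Tpm2, a tropomyosin, rose at 19 against 3 months from 57.3 to 99.5 FPKM (log2 0.81 ± 0.18, limma adjusted p = 0.0319). At 24 against 3 months Acta2, smooth muscle actin, rose from 0.584 to 3.05 FPKM (1.42 ± 0.31, adjusted p = 0.0204), and Vcl, vinculin, fell from 6.45 to 2.92 FPKM (-0.94 ± 0.21, adjusted p = 0.0231). No gene of the list was called at 24 against 19 months, with 4 at an unadjusted p under 0.05. The list medians were -0.01, -0.20 and -0.16. Each call was lost in 4 of 9 fits that left out 1 library: that of Tpm2 when replicate 1 or 2 of 3 months, or replicate 2 or 3 of 19 months, was dropped, that of Acta2 for replicate 1 or 3 of 3 months and replicate 2 or 4 of 24 months, and that of Vcl for replicate 2 or 3 of 3 months and replicate 2 or 4 of 24 months. The highest limma adjusted p was 0.139 for Tpm2 without 19 months replicate 3, and 0.0788 for Acta2 and 0.108 for Vcl without 24 months replicate 4. In the 6 libraries that share read steps Vcl was still called (limma adjusted p = 0.0415), while Tpm2 (0.0536) and Acta2 (0.0965) were not. Those 6 libraries also gave calls that all 9 did not. Thbs1, a thrombospondin, was lower at 19 against 3 months (log2 -1.06, limma adjusted p = 0.0133). Tagln2, a transgelin, and Fhl2, a LIM protein, were lower at 24 against 19 months (log2 -1.0 and -1.31, limma adjusted p = 0.00961 and 0.0335).

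Immediate early genes respond quickly to growth factors, stress and tissue dissociation, and Cyr61 is counted among them. Of 19 tested genes of that list, 7 rose and 0 fell at 24 against 3 months, with 14 higher and 1 lower at an unadjusted p under 0.05, a median of 0.80 and 18 of 19 above 0. At 24 against 19 months 3 rose and 0 fell, with 11 higher at an unadjusted p under 0.05, a median of 0.70 and 18 of 19 above 0. At 19 against 3 months 0 were called by limma, with 5 at an unadjusted p under 0.05, a median of 0.10 and 11 of 19 above 0. In the 6 libraries that share read steps, Jun was called lower at that comparison (log2 -1.06 ± 0.17, limma adjusted p = 0.0132). In all 9 its log2 difference was -0.67, with a limma adjusted p of 0.121.

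Fos, a subunit of AP-1, rose at 24 against 3 months from a mean of 77.6 ± 38.6 to 319 ± 143 FPKM (n = 3 each, SD), by log2 values of 2.05 ± 0.39 (SE, limma adjusted p = 0.0104). Egr1, a zinc finger factor, rose from 51.3 ± 10.5 to 162 ± 41.1 FPKM (1.62 ± 0.24, adjusted p = 0.00337), and Nr4a1, an orphan receptor, from 4.77 to 16.0 FPKM (1.69 ± 0.33, adjusted p = 0.0121). Btg2, Dusp1, Ier3 and Klf4 rose by log2 values of 0.80, 1.10, 1.29 and 0.97 (limma adjusted p = 0.0125, 0.0131, 0.0131 and 0.0477). Fos, Egr1, Nr4a1 and Btg2 kept the call in each of the 9 fits that left out 1 library, with a highest adjusted p of 0.0407, 0.016, 0.046 and 0.0473. The limma adjusted p was 0.0601 for Dusp1 without 3 months replicate 2, and 0.0511 for Ier3 and 0.117 for Klf4 without 24 months replicate 2. The Dusp1 call was also lost without 3 months replicate 3, and that of Klf4 in 6 of 9 fits, those without any 1 library of 3 or 24 months. Egr2 was the lowest of the list, at -0.66 ± 0.24 (limma adjusted p = 0.129).

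At 24 against 19 months Dusp1, a MAP kinase phosphatase, rose from 29.8 to 68.1 FPKM (log2 1.23 ± 0.22, limma adjusted p = 0.0186), Jun, an AP-1 subunit, from 17.3 to 37.5 FPKM (1.12 ± 0.21, adjusted p = 0.0224) and Btg2 by 0.70 (adjusted p = 0.0499). The Btg2 call was lost in 8 of 9 fits that left out 1 library, all but the one without 19 months replicate 1. Those of Dusp1 and Jun were lost in 4, without replicate 2 or 3 of 19 months or replicate 3 or 4 of 24 months. The highest limma adjusted p was 0.0788 for Dusp1 and 0.211 for Btg2 without 19 months replicate 2 and 0.122 for Jun without 24 months replicate 4. The count of 3 was 7 without 19 months replicate 1 and 0 when either replicate 2 or replicate 3 of 19 months, or replicate 3 or replicate 4 of 24 months, was left out. In the 6 libraries that share read steps, 6 early response genes rose and 1 fell (Egr2) at both 24 against 3 and 24 against 19 months. Btg2 and Nr4a1 were not called at the first (limma adjusted p = 0.0549 and 0.0753), nor Btg2 at the second (0.0632). Of the called genes in these lists, none at 24 against 3 or 24 against 19 months was called in the fit of all gene types.

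**Figure D4:**
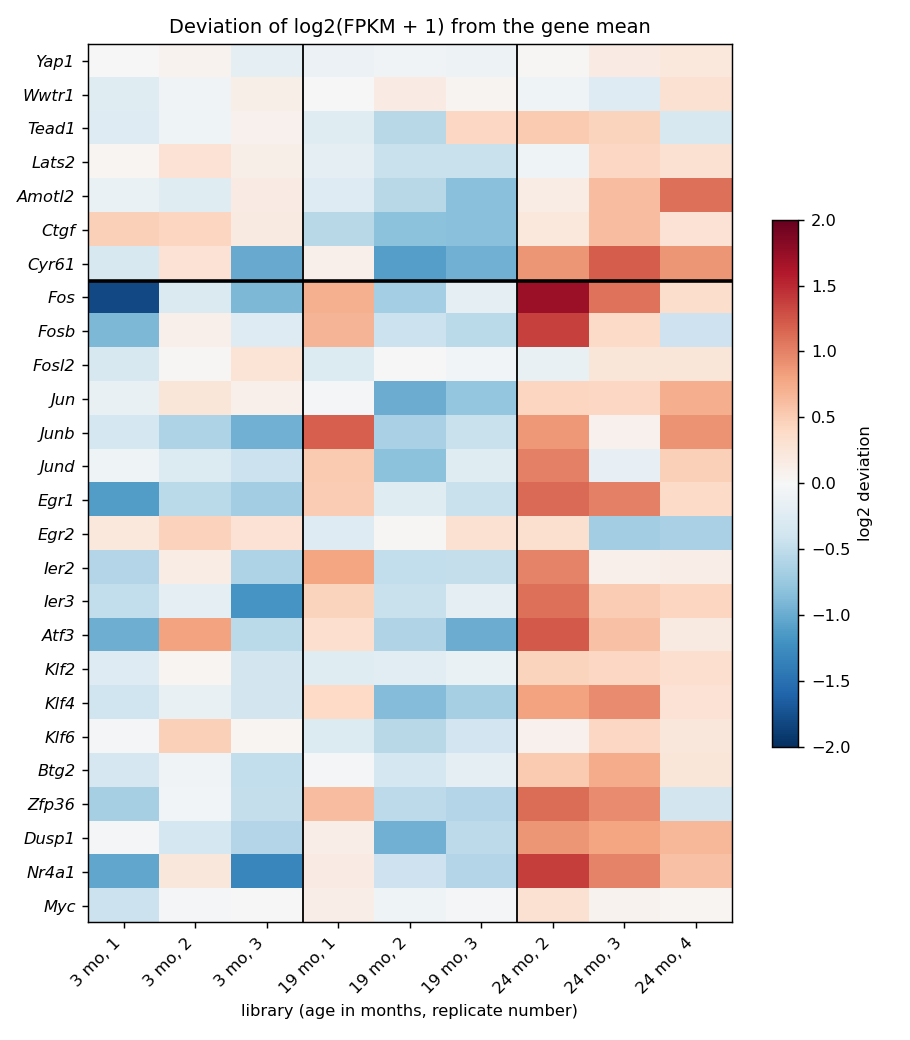
Log2(FPKM + 1) less the gene's mean (colour scale) of the 7 fitted YAP and TEAD genes (above the thick line) and the 19 early response genes (below it) in the 9 libraries, grouped by age (columns). At 24 months most early response genes and Cyr61 are above their mean, and at 19 months replicate 1 is the highest of its age for 16 of 19 early response genes and for Cyr61.

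The early response varied between libraries of 1 age as well. At 19 months replicate 1 was highest of its age for 16 of 19 early response genes and also held the highest Cyr61 (163 FPKM). At 3 months replicate 2 was highest for 14 of 19 and again held the highest Cyr61 (184 FPKM). At 24 months replicate 2 was highest for 13 of 19, while Cyr61 was highest in replicate 3 (351 FPKM). Of these libraries, 19 months replicate 1 and 24 months replicate 2 share read steps with each other and not with the 6. By contrast, 3 months replicate 2 belongs to the 6 libraries that share read steps. Whether the early response levels go with the read steps was not tested. The part of the early response in the Cyr61 level was not tested either.

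Bulk RNA does not tell fewer cells of a type from less RNA per cell. The 8 markers of bulge stem cells summed to 4078.5 to 5967.4 FPKM at 3 months, 5179 to 6144.2 FPKM at 19 months and 5140.5 to 7624.9 FPKM at 24 months. Most of that sum was Krt14, a keratin of all basal cells (3234.9 to 6619.4 FPKM), and Krt15 was listed at 0. Cd34 lay between 403 and 632 FPKM and Itga6, the gene of CD49f, between 72.7 and 117 FPKM. Of 7 tested genes, 2 rose at 19 against 3 months, the bulge factors Sox9 (log2 0.66 ± 0.15, limma adjusted p = 0.0348) and Nfatc1 (0.78 ± 0.17, adjusted p = 0.0264), each call lost in 4 of 9 fits that left out 1 library. Lgr5, a WNT pathway receptor of the lower bulge and hair germ, fell at 24 against 3 months from 121 to 59.2 FPKM (-1.01 ± 0.17, limma adjusted p = 0.00581), a call kept in all 9 fits.

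Fibroblasts, in which Ctgf and Cyr61 are also abundant, had 6 markers that summed to 5.99 to 8.75, 10.0 to 12.0 and 9.42 to 16.7 FPKM in order of age, with 3 of 6 under 1 FPKM in every library. Col1a2 made up most of the sum, with means of 5.80, 10.0 and 8.98 FPKM. The means of Col1a1 (1.11, 0.713 and 0.945 FPKM) and Dcn (0.441, 0.233 and 1.42 FPKM) were lowest at 19 months, and neither of the 2 tested genes was called by limma at any comparison, with 1, 1 and 0 at an unadjusted p under 0.05. Endothelial markers summed to 12.3 to 14.7, 10.0 to 11.0 and 6.09 to 8.03 FPKM, with 4 of 6 under 1 FPKM throughout. Both tested genes fell at 24 against 3 months, Ramp2 (log2 -0.88 ± 0.15, limma adjusted p = 0.00697) and Egfl7 (-0.83 ± 0.18, adjusted p = 0.0219, lost in 4 of 9 fits that left out 1 library). Mural and smooth muscle markers summed to 37.9 to 54.7, 39.7 to 51.1 and 30.1 to 41.9 FPKM, with 4 of 5 under 1 FPKM, Des listed at 0 and nearly all of the sum from Cspg4.

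Immune markers summed to 28.7 to 63.4, 23.4 to 53.7 and 28.7 to 54.4 FPKM, with 3 of 6 under 1 FPKM and most of the sum from Cd74. Cd74 had means of 33.6, 32.1 and 30.4 FPKM in order of age, and Cd207 of 0.423, 0.475 and 0.612 FPKM. The means of Ptprc, Tyrobp, Cd3e (4.70, 2.78 and 6.94 FPKM) and Fcer1g (3.70, 1.52 and 5.92 FPKM) were lowest at 19 months. Fcer1g, an Fc receptor subunit of myeloid and mast cells, fell at 19 against 3 months (log2 -0.90 ± 0.20, limma adjusted p = 0.0373, lost in 5 of 9 fits that left out 1 library). It rose at 24 against 19 months (1.45 ± 0.20, limma adjusted p = 0.00403, kept in all 9).

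Sebaceous markers summed to 95.6 to 125, 102 to 136 and 60.7 to 84.7 FPKM, most of it Plin2, a lipid droplet protein. Of the 5 genes, 3 were called lower at 19 against 3 months and 4 at 24 against 3 months. Cidea, a lipid droplet protein of sebocytes, had means of 7.07, 1.07 and 1.40 FPKM (log2 -2.08 and -1.80, limma adjusted p = 0.00377 and 0.0081), and Elovl3, a fatty acid elongase, 7.32, 1.33 and 0.862 FPKM (-2.10 and -2.16, adjusted p = 0.0373 and 0.0209). Mc5r, a melanocortin receptor, was called lower at both (log2 -1.30 and -0.94, limma adjusted p = 0.00377 and 0.0178). It read at least 1.14 FPKM at 3 months, and at most 0.0535 FPKM at 19 and 0.567 FPKM at 24 months. Mc5r passed the filter on low values only through the 3-month libraries, so its calls are no support for a fall. Fasn, fatty acid synthase, fell at 24 against 3 months (log2 -1.18, limma adjusted p = 0.0109). Plin2 fell at 24 against 19 months (log2 -0.72, limma adjusted p = 0.0457, lost in 6 of 9 fits that left out 1 library). Leaving out 1 library also ended calls of Elovl3 in 4 fits and 3 fits at 19 and 24 against 3 months, and of Mc5r in 3 at 24 against 3 months.

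Melanocyte markers summed to 12.2 to 17.9, 6.54 to 8.45 and 4.19 to 9.20 FPKM. Of 4 tested, Tyrp1, a melanin synthesis enzyme, fell at 19 and at 24 against 3 months (log2 -1.39 and -1.31, limma adjusted p = 0.0139 and 0.0131), each call lost in 3 of 9 fits that left out 1 library. Tyrp1 read 1.23 to 3.57 FPKM at 3 months, and at most 0.594 FPKM at 19 and 0.747 FPKM at 24 months. It passed the filter on low values only through the 3-month libraries, so these calls are no support for a fall. Skeletal muscle markers summed to 9.06 to 11.7, 12.2 to 18.0 and 11.4 to 14.8 FPKM, with 5 of 6 under 1 FPKM. Differentiated keratinocyte markers summed to 1985.3 to 2935.3, 2389.9 to 3193 and 2228.1 to 3944.2 FPKM. Most of that sum was Krtdap (1582.9 to 3452.4 FPKM over the 9 libraries), followed by Sbsn (224 to 438 FPKM). Krt10 lay between 53.1 and 125 FPKM, Krt1 between 10.8 and 32.4 FPKM and Lor between 4.32 and 17.6 FPKM. Of the 5 genes, 0 were called by limma at any comparison, with 2, 1 and 1 at an unadjusted p under 0.05. The part of other cell types in the levels of Ctgf, Cyr61, Amotl2 and Lats2 was not tested.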

How the data were processed

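The authors deposited 1 table of FPKM values for 9 libraries. Per the submitters' processing notes, TopHat, Cuffdiff and NCBIM37 were involved, with no versions stated. FPKM are not counts, so no count test was run. Rows were typed by Ensembl identifier with GENCODE M21 (32916 of 37980 matched, 20213 protein-coding). Protein-coding rows that reached 1 FPKM in 3 or more libraries were fitted in 1 model over the 9 libraries, on log2(FPKM + 1), with limma 3.58.1 (R 4.3.3, two-sided, trended prior). Another 36 rows, listed at 0 at an age and at 5 FPKM or more in every library of another, were left out. The members, the lists and the protein-coding fit were chosen with earlier results of these data known, and that fit was known to call more genes than one of all types. Named are all members, every called gene of the pathway lists, the highest and lowest of each pathway list at 24 against 3 months, and the 3 genes most like each member. Vgll4, Ywhaq, Tagln2, Fhl2, Thbs1 and called marker genes were named after their values were seen. The fits were tested on simulated data. Same-numbered libraries were no more alike than others in their deviations from the age means. Alternatives were other pseudocounts, filters, gene types, prior, scalings, a replicate block, the 2 ages alone, each library left out and, added after seeing the data, the 6 libraries that share read steps.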

Additional observations from a re-analysis of the deposited data

How the results depend on the processing

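Over 21 alternatives, 437 of 441 recomputed differences of the 7 genes in the fit stayed within the spread between libraries. That count overstates the stability, because many alternatives cannot change a difference of age means. Other filters, gene types or prior, the 2 ages alone and leaving out a library of the third age change only its SE. The ranges below come from the alternatives that can move a difference. Ctgf ranged from -1.22 to -1.04 at 19 against 3 months and from 0.99 to 1.27 at 24 against 19 months, Cyr61 from 1.01 to 1.66 at 24 against 3 months and from 1.42 to 2.08 at 24 against 19 months, Amotl2 from 0.93 to 1.55 and Lats2 from 0.47 to 0.80 at 24 against 19 months. The Cyr61 difference at 19 against 3 months was -0.68 without 19 months replicate 1 and 0.01 without 3 months replicate 2. The sign changed under some alternatives for Ctgf, Lats2 and Wwtr1 at 24 against 3 months and for Wwtr1 at 24 against 19 months. It also changed for Cyr61 and Tead1 at 19 against 3 months. Before any alternative, that Cyr61 difference was -0.31 (SE 0.30) and the others lay between -0.09 and 0.07.

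The counts of called genes depended far more on the setting, and the cause was not tested. At 19 against 3 months, 180 became 53 with no filter on low values, 27 with all gene types and 40 with rows listed at 0 kept as well. Leaving out 1 library gave 69 to 230, the lowest being 69 without 3 months replicate 1, 72 and 85 when 19 months replicate 3 or 2 was dropped, and 92 when 3 months replicate 2 was. At 24 against 3 months, 442 became 118, 0 and 29 under the same 3 settings. Leaving out 1 library gave 136 to 456, with 150 when 3 months replicate 2 was dropped and 136 when 24 months replicate 4 was. At 24 against 19 months, 107 became 0, 0 and 7, and 59 with quantile normalisation. In limma fits with 0 calls, 1788 (no filter) and 1504 (all gene types) had an unadjusted p under 0.05 here, and 2630 at 24 against 3 months. Leaving out 1 library gave 20 to 216, with 46 when 3 months replicate 2 was dropped, 20 or 30 for 19 months replicate 2 or 3, and 216, 54 or 22 for 24 months replicate 2, 3 or 4. The 6 libraries that share read steps, an alternative added after seeing the data, gave 126, 376 and 307.

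With the replicate number as a block, 253, 158 and 110 genes were called. Deviations of same-numbered libraries correlated at -0.20 to 0.19 over 7 pairs, so the libraries share only a number. The depth is unknown, so no counting interval or detection limit can be given.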
